A study of Homo sapiens with 16 samples.

Results

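In the colon cancer cell line HCT116, 3815 of the 79404 SETDB1 peaks of the control cells (4.80%, exact 95% interval 4.66 to 4.96) were met by a SETDB1 peak after knockdown of ARID1A. These 3815 regions are called kept sites here, and the other 75589 are called not kept. They were chosen by the positions of the peaks in both SETDB1 libraries: a peak of the shCtrl list on chromosomes 1 to 22 and X that overlapped a peak of the shARID1A list by at least 1 bp, both called against input DNA. The number of kept sites and their SETDB1 heights therefore describe the choice and are given with no test.

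Chromatin immunoprecipitation sequencing (ChIP-seq) was done with antibodies against ARID1A, TRIM28, SETDB1 and the histone mark H3K9me3, in a series that asked how ARID1A relates to heterochromatin. The 16 samples are of 3 cell states: HCT116 cells with no shRNA in their label (called unmodified), control cells labelled CTR and read as the shCtrl cells of the series' design, and shARID1A cells, in which a short hairpin RNA targets ARID1A. No label names the hairpin or a clone, or gives the remaining level of ARID1A. Each state and antibody has 1 library, with peaks deposited against input and against IgG, so no comparison between cell states has a replicate check.

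SETDB1 methylates lysine 9 of histone H3. It is brought to chromatin mainly by TRIM28, a corepressor that binds the KRAB domains of zinc finger proteins, and the resulting H3K9me3 is read by heterochromatin proteins. Known targets of this pathway are transposable elements and the 3′ exons of zinc finger genes. ARID1A is a DNA-binding subunit of the SWI/SNF remodelling complex.

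Overlaps between libraries did not always follow their labels, and this touches the kept sites. The library labelled shCtrl SETDB1 met the library labelled shARID1A SETDB1 at 4.80% of its peaks, the library labelled shCtrl H3K9me3 at 22.3% and the library labelled shARID1A H3K9me3 at 20.1%. Over peaks with q of at most 0.05 in both lists, these shares were 1.56%, 11.8% and 17.2%. The 3 lists met held 1363, 6833 and 12115 such peaks, so the order of these shares follows the length of the lists. Of the 835 peaks of the unmodified ARID1A library with q of at most 0.05, 664 lay on such a peak of the shCtrl H3K9me3 library. Only 2 lay on such a peak of the shCtrl ARID1A library, which had just 43 of them against 6833 for shCtrl H3K9me3. These counts thus also carry the length of the lists. Most lists hold weak peaks: the shARID1A SETDB1 list had 39245 peaks, of which 1363 had q of at most 0.05. Read depth is unknown, since the lists give no read totals. Intervals below cover counting error over peaks only, and peaks of a library are not replicates of a condition.

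The gene starts met by kept sites often held 1 short promoter element, so these sequences are shown first. The element searched was ACTACANNT on both strands, which contains the shorter core ACTACA. These letters are part of a promoter element known to be bound by ZNF143 and THAP11, which is given as background, since neither protein was measured. The element was chosen after the peaks had been seen. Each line holds the 250 bases before the start of a gene at a kept site, from RefSeq (GRCh38.p14), 5′ to 3′ on the gene's strand, with the element or its reverse complement in capitals. PRCC and the antisense gene of ZNF225 are shown because they were the tallest kept gene starts. The others were picked because they held the element, were tall and had no H3K9me3 peak in shARID1A cells. The element in these others was thus fixed by the choice.
PRCC: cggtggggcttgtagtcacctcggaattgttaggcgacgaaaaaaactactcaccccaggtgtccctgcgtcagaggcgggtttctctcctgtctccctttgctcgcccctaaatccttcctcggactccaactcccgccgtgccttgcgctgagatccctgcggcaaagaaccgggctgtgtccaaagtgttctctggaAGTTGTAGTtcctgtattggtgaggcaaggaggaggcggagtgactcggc
ZNF225-AS1: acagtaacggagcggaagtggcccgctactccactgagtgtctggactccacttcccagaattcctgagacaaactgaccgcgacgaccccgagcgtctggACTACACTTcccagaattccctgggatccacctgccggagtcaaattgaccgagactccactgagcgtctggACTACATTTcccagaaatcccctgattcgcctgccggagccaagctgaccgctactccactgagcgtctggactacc
ZW10: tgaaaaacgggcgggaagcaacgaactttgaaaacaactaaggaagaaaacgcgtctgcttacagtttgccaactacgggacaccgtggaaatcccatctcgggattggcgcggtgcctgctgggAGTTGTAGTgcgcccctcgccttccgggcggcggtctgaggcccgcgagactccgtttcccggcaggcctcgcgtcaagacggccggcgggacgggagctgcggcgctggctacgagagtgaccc
RPIA: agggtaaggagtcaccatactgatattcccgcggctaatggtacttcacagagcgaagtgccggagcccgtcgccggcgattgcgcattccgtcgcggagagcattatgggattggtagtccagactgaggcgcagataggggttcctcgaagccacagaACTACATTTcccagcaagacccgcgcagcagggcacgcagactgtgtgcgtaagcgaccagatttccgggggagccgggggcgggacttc
TMEM115: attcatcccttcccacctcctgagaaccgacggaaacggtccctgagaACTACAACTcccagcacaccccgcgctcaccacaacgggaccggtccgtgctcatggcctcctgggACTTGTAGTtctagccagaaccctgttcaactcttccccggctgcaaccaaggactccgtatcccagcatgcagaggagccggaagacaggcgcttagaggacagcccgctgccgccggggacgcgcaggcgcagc
IFTAP: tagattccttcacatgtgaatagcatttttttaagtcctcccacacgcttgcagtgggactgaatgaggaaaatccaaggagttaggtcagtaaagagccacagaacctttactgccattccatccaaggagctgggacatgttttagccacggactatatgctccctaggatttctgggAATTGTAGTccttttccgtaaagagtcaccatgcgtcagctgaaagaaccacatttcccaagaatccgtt

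The windows are at chr1:156767285-156767534 (plus strand) for PRCC, chr19:44113184-44113433 (minus strand) for ZNF225-AS1 and chr11:113773693-113773942 (minus strand) for ZW10. They are at chr2:88691423-88691672 (plus strand) for RPIA, chr3:50359522-50359771 (minus strand) for TMEM115 and chr11:36594252-36594501 (plus strand) for IFTAP. The ZNF225-AS1 and TMEM115 windows held 2 matches each, and the other 4 windows held 1 each. TMEM115 carried its matches in opposite orientations, while both matches of ZNF225-AS1 pointed the same way.

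Kept sites were taller and wider than the rest in the library that defined them. Height is given as the fold enrichment that the authors' peak caller lists for each peak. In shCtrl cells the kept sites had a lowest fold of 1.43, a median of 4.70 and a highest of 40.8, and the median was 3.46 at sites not kept. At the same kept sites the shARID1A fold had a median of 3.16 and a highest of 14.5. The fold was higher in shCtrl cells at 3114 of the 3815 sites (81.6%), although folds of separately called libraries are not on a common scale. With all shCtrl peaks divided by fold into 10 groups of equal size, the share kept was between 2.0% and 2.95% in each of the 5 lowest groups and 17.3% in the highest. Median width was 396 bp at kept sites and 321 bp at the others, and a wider peak can meet another one more easily. The widest kept site, 10878 bp in the lncRNA gene MIR31HG on chromosome 9, had a fold of 5.71 in shCtrl and 3.60 in shARID1A cells.

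The summits of both SETDB1 libraries lay a median of 75 bp apart at kept sites, and within 100 bp at 59.8% of them. A q of at most 0.05 was reached by 2884 kept sites in shCtrl cells (75.6%), by 630 in shARID1A cells and by 587 in both. Against IgG in place of input, 92.5% of the kept sites were listed in shCtrl and 75.3% in shARID1A cells, and 2663 (69.8%) in both. Among sites not kept, 23.9% were met by a shARID1A SETDB1 peak called against IgG. Close to the limit of the rule, 51 members overlapped by 10 bp or less and 39 other peaks missed by 10 bp or less. Median shCtrl folds were 3.63 for these 51 members and 3.43 for these 39 other peaks.

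**Figure D1:**
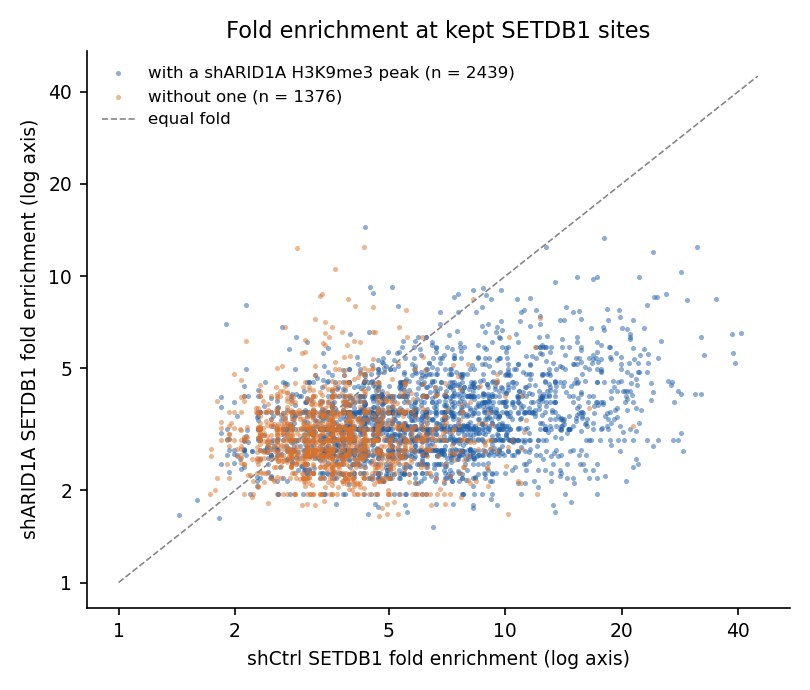
Fold enrichment of SETDB1 at the 3815 kept sites in shCtrl (x axis) and shARID1A cells (y axis), both on log axes, 1 point per site. Blue points (n = 2439) had an H3K9me3 peak in shARID1A cells and orange points (n = 1376) had none. Most points lie below the dashed line of equal fold, and blue points reach farther to the right (median shCtrl fold 5.99 against 3.58).

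Libraries that took no part in the choice separated kept from not kept sites most clearly for H3K9me3 in the knockdown cells. A shARID1A H3K9me3 peak called against input lay on 2439 of the 3815 kept sites (63.9%), beside 17.8% of the sites not kept and 20.1% of all shCtrl SETDB1 peaks. The difference was 46.1 percentage points (Newcombe 95% interval 44.5 to 47.6), and 33.3 (31.9 to 34.8) when sites of like fold and width were compared. Counting only H3K9me3 peaks with q of at most 0.05, the shares were 46.1% (1760 sites) and 8.16%. Against IgG the shares were 72.2% and 45.2%, with 46.5% for all peaks. That difference of 27.1 points became 11.9 (10.5 to 13.2) within ranges of fold and width. With the input list, the share rose with SETDB1 height among the kept sites, which were divided by fold into 5 groups of near equal size. It was 35.0% in the lowest, then 45.6%, 63.1% and 80.3%, and 95.1% in the highest. Sites not kept in the same ranges of fold had 9.64%, 16.2%, 26.1%, 35.9% and 59.6%, lower in every range. With kept sites defined by the IgG lists of SETDB1, of which there were 27738, the difference was 5.67 points (5.14 to 6.21). It was 32.0 (31.3 to 32.6) when the H3K9me3 list was also called against IgG.

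TRIM28 of the knockdown cells was also more frequent at kept sites. Its input list met 1293 kept sites (33.9%), 8.70% of the sites not kept and 9.91% of all. The difference was 25.2 points (23.7 to 26.7), and 22.9 (21.3 to 24.4) within ranges of fold and width. With only the TRIM28 list against IgG it was much smaller: 27.5% of kept sites, 23% of the others and 23.2% of all. That difference of 4.55 points became 0.509 (-0.996 to 2.01) within ranges of fold and width. With only the SETDB1 lists against IgG the difference was 1.31 (0.903 to 1.72). With the TRIM28 list and both SETDB1 lists against IgG it was 26.2 (25.6 to 26.8). Counting only TRIM28 peaks against input with q of at most 0.05, 1.70% of kept sites (65) and 0.214% of the others were met. That difference was 1.49 (1.12 to 1.95). The lists of 1 state appear to use a common input library, so a low stretch of that input can place peaks of SETDB1, TRIM28 and H3K9me3 at 1 position, and its part in the input shares was not tested. Both TRIM28 and H3K9me3 of shARID1A cells lay on 1019 kept sites (26.7%), against 3.89% of sites not kept.

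The lists of the control cells gave small or opposite differences. A shCtrl TRIM28 peak lay on 329 kept sites (8.62%), 6.56% of the others and 6.66% of all; within ranges of fold and width the difference was -0.270 (-1.23 to 0.692). With the TRIM28 list against IgG the shares were 16.8%, 11.6% and 11.9%. A shCtrl H3K9me3 peak was less frequent at kept sites: it lay on 511 of them (13.4%), on 22.8% of the others and on 22.3% of all, a difference of -9.40 points (-10.5 to -8.24) that became -15.8 (-16.9 to -14.6) within ranges of fold and width. Against IgG these shares were 19.8%, 27% and 26.7%. The sign turned when kept sites were defined by the IgG lists of SETDB1 (8.56). Control TRIM28, H3K9me3 and ARID1A together lay on 34 kept sites (0.891%) and on 1.05% of the others.

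For ARID1A itself the sign of the difference varied with the lists compared. The shCtrl ARID1A list met 518 kept sites (13.6%), 15.1% of the others and 15% of all, a difference of -1.52 points (-2.61 to -0.373) that turned to 1.93 (0.514 to 3.38) with the list called against IgG (26.6%, 24.7% and 24.7%). Within ranges of fold and width it was negative against both controls, at -6.42 (-7.60 to -5.25) for input and -2.20 (-3.67 to -0.722) for IgG. Only 2 kept sites met a shCtrl ARID1A peak with q of at most 0.05, so these shares rest almost wholly on weak peaks. The unmodified ARID1A list met 234 kept sites (6.13%), 11.5% of the others and 11.2% of all. Against IgG the shares were 6.84%, 11.1% and 10.9%. That library is the one whose strongest peaks lay on the shCtrl H3K9me3 library, and the direction turned with kept sites defined by the IgG lists of SETDB1 (7.05).

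In unmodified cells, which carry no shRNA by their label, TRIM28 lay on 340 kept sites (8.91%), 3.38% of the others and 3.65% of all, and against IgG on 9.54%, 3.09% and 3.4%. H3K9me3 of unmodified cells lay on 118 kept sites (3.09%), 1.06% of the others and 1.16% of all, and against IgG on 3.17%, 0.962% and 1.07%. The differences of 5.53 (4.66 to 6.48) and 2.03 points (1.52 to 2.63) left out 0. With every list called against IgG, also for the choice of kept sites, they were 0.813 (0.565 to 1.07) and -0.0932 (-0.227 to 0.0498). Strong peaks were few in these lists, with 1 and 0 at kept sites. None of the other 8 input lists met 684 kept sites (17.9%), against 45% of the sites not kept, and 3 kept sites met all 8.

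**Figure D2:**
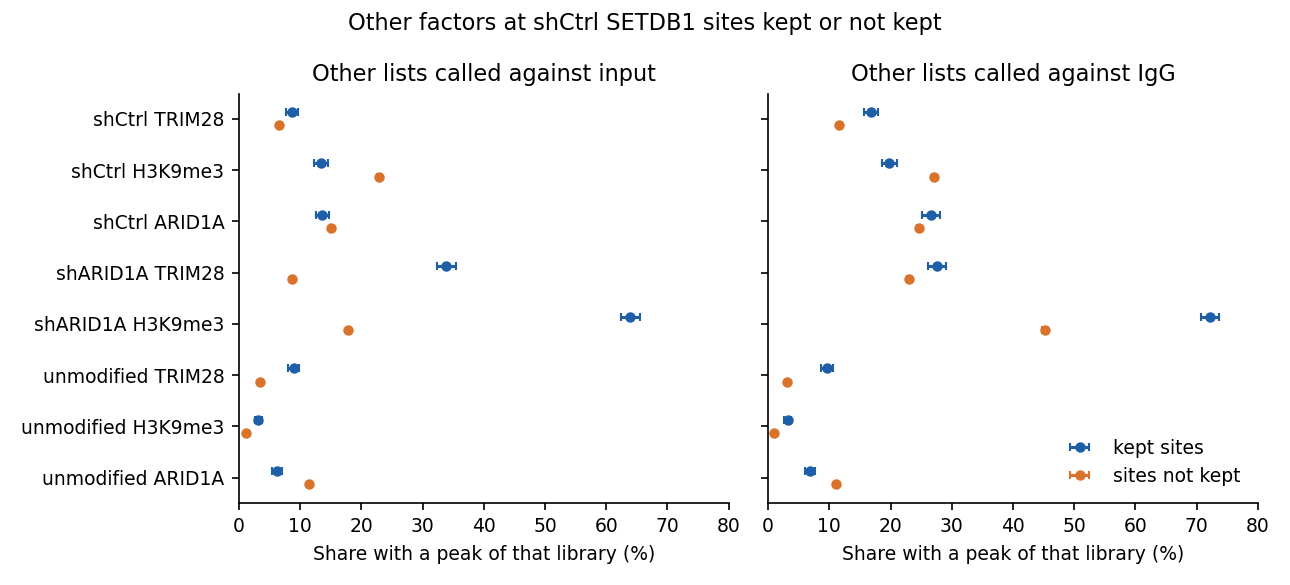
Share of SETDB1 sites (x axis, percent) with a peak of each of the 8 other libraries (y axis), for kept (blue, n = 3815) and not kept sites (orange, n = 75589), with other lists called against input (left) and IgG (right). Points are shares and bars exact 95% intervals. The gap was widest for H3K9me3 of shARID1A cells (63.9% against 17.8% on the left), while the TRIM28 gap of the same cells was wide only on the left.

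Kept sites with and without H3K9me3 in the knockdown cells differed in place. Of the 2439 sites with the mark, 37.6% lay in a protein-coding gene, and of the 1376 without it 47.5%. A gene start was met by 119 of 2298 sites with the mark (5.18%) and 205 of 1291 sites without it (15.9%), a difference of -10.7 points (-13.0 to -8.57). For gene starts a site had to overlap the window from 250 bp before to 50 bp after an annotated start, and chromosome 8 was left out because the table of starts used here did not cover it. TRIM28 of shARID1A cells was found at 41.8% of the sites with the mark and 19.9% of those without it, but at 26.2% and 29.9% when TRIM28 was called against IgG. TRIM28 of unmodified cells was found at 11.8% and 3.85%, and against IgG at 12.8% and 3.78%.

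**Figure D3:**
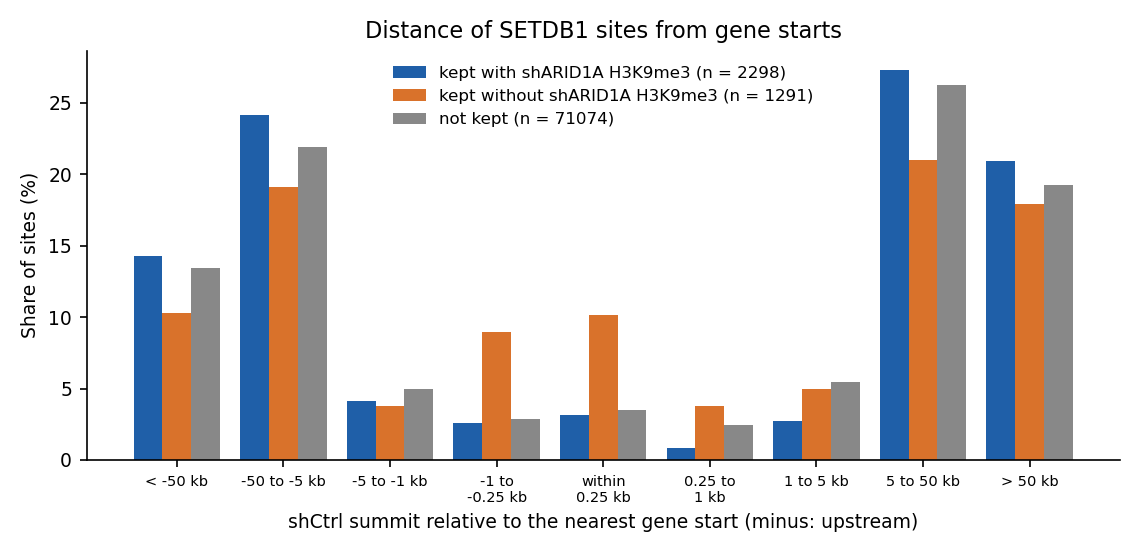
Share of SETDB1 sites (y axis, percent) by the distance of the shCtrl summit from the nearest gene start (x axis, minus is upstream), for kept sites with (blue) and without (orange) an H3K9me3 peak in shARID1A cells and for sites not kept (grey). Orange bars are highest among the 3 sets between 1 kb upstream and 1 kb downstream (10.1% within 0.25 kb, against 3.13% and 3.48%).

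Taking all kept sites together, 324 of 3589 met a gene start (9.03%), beside 4.67% of the sites not kept and 4.88% of all shCtrl SETDB1 peaks outside chromosome 8. The difference of 4.35 points (3.45 to 5.35) became -0.569 (-1.39 to 0.429) when kept sites had to overlap over at least 50% of both peaks, and 9.64 (9.24 to 10.1) with kept sites defined by the IgG lists. The tables used here give the extent of genes but no exons, so exonic and intronic sites were not told apart. Protein-coding genes held 1572 kept sites (41.2%), 46.3% of the others and 46.1% of all, a direction that turned to 2.2 with kept sites defined by the IgG lists. By chromosome, the kept share was highest on chromosome 19 (136 of 1723 peaks, 7.89%, 6.66 to 9.27) and chromosome 21 (28 of 385, 7.27%), and lowest on X (2.92%) and chromosome 22 (3.27%).

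The promoter element was more frequent at kept gene starts than at the starts met by any other list. Of 34789 annotated gene starts, 3.56% held ACTACANNT and 8.42% held the core ACTACA. Among the 408 starts met by a kept site, 134 held the longer element (32.8%, 28.3 to 37.6). The share was 38.7% (104 of 269) at starts met by a kept site without H3K9me3 in shARID1A cells and 21.5% (31 of 144) at starts met by one with it. It reached 50.4% (59 of 117) where both SETDB1 peaks had q of at most 0.05. At starts with a shCtrl SETDB1 peak that was not kept it was 4.78% (199 of 4164), and at starts with a SETDB1 peak in shARID1A cells only it was 10.0% (209 of 2085). Starts met by the 8 other libraries lay between 2.07% (unmodified ARID1A) and 6.71% (shARID1A H3K9me3).

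Counted over peaks, a site had the element where it met a start window that held it, whether or not the element lay inside the peak. By this count, 111 of the 324 kept sites at gene starts had the element (34.3%), against 167 of 3321 sites not kept (5.03%). The difference was 29.2 points (24.2 to 34.6) and 28.7 (23.6 to 33.9) within ranges of fold and width. With kept sites defined by the IgG lists it was 7.01 (5.74 to 8.26), and with q of at most 0.05 in both input lists 48.1 (37.6 to 58.2). By shCtrl fold, the share lay between 31.7% and 38.5% in 5 groups of kept sites by fold and between 3.95% and 7.42% at sites not kept. Among 5 other promoter motifs, the GC box GGGCGG was more frequent at kept starts (62.7% against 48.8%). The TATA box TATAAA (6.48% against 11.1%) and the AP-1 element TGAGTCA (3.7% against 8.85%) were less frequent. The intervals for the ETS core CCGGAAG (23.1% against 20.8%) and the CCAAT box CCAAT (39.8% against 44.6%) held 0. A GC box was thus common in both sets, while the longer element was rare at gene starts outside the kept sites. Each motif was searched on both strands, and the windows of kept starts had a median GC content of 60.7%, against 56.7% for starts with a shCtrl peak that was not kept and 58.7% for all starts.

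The summit of the shARID1A peak lay close to the element. At the 111 kept sites it was a median of 46 bp away (quartiles 20.5 and 86.5), and 59 of the sites (53.2%, 43.4 to 62.7) had it within 50 bp. The shCtrl summit at the same sites lay a median of 121 bp away, with 31 (27.9%, 19.8 to 37.2) within 50 bp. The shARID1A summit was the nearer of the pair at 81 sites and the shCtrl summit at 30. Similar distances were seen outside the kept sites, at 45 bp for shARID1A peaks with no shCtrl peak (n = 168) and 109 bp for shCtrl peaks not kept (n = 167). Summits of the shARID1A library lay nearer to the element than those of the shCtrl library, at kept sites and elsewhere. Within 50 bp of the shCtrl summit, kept minus not kept was 5.77 points (-4.41 to 16.4).

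**Figure D4:**
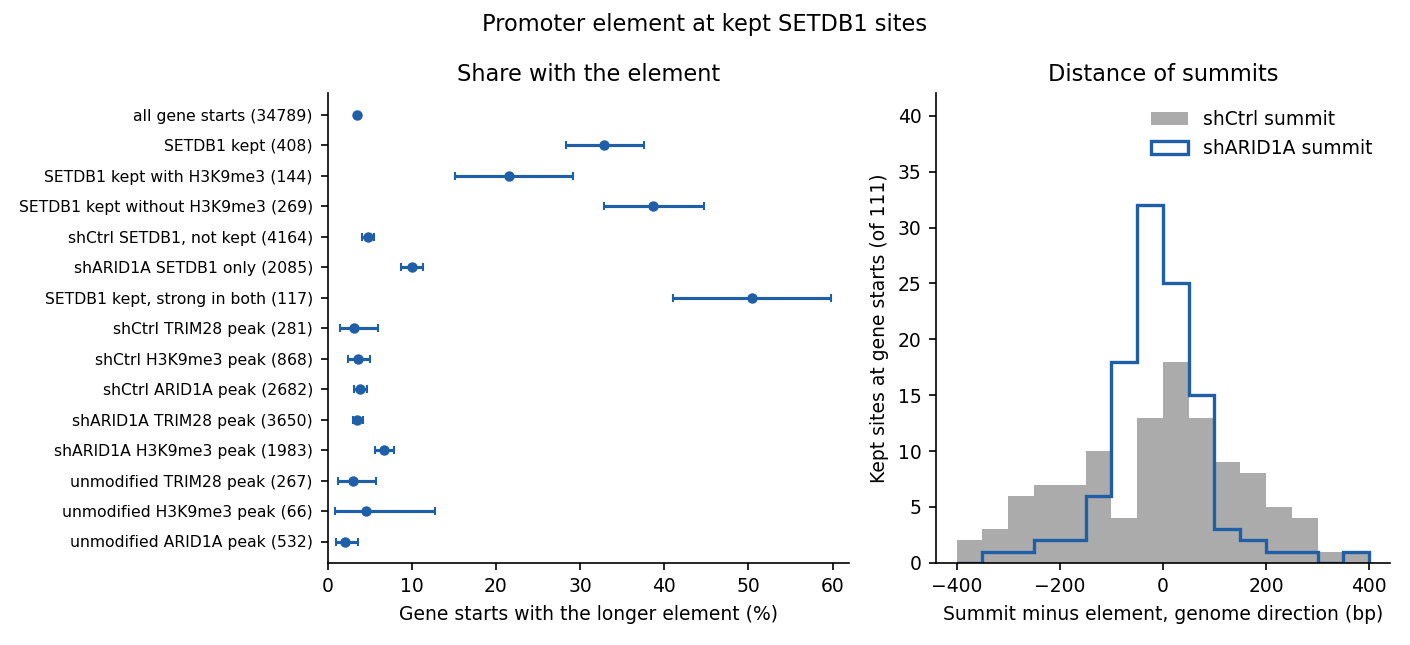
Left: share of gene starts (x axis, percent) with the longer element for all starts and for starts met by the named peaks (number of starts in brackets), with exact 95% intervals. H3K9me3 beside "kept" means a peak in shARID1A cells. Right: number of kept sites at gene starts with the element (y axis, of 111) by the distance from element to summit in 50 bp steps for the shCtrl (grey) and shARID1A summit (blue), with 1 shARID1A summit beyond 400 bp not drawn. Kept starts lie at 21.5% to 50.4% and all others at or below 10.0%, and the blue outline is concentrated near 0.

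Genes at such starts served varied roles. ZNF225 on chromosome 19 shares its start region with its antisense gene, and the kept peak there (chr19:44112851-44113549) had a fold of 12.3 in shCtrl and 7.32 in shARID1A cells, with summits 1 bp apart. ZW10, a kinetochore protein, had 11.9 and 5.89. RPIA, the ribose-5-phosphate isomerase of the pentose phosphate pathway, had 5.54 and 7.76, higher in the knockdown library. TMEM115, a Golgi membrane protein, also had the higher value in that library (5.30 and 6.81). IFTAP, an intraflagellar transport associated protein, had 8.03 and 5.17, with summits 4 bp apart. The shared start region of MDH1, the cytosolic malate dehydrogenase, and WDPCP, a ciliary planar polarity gene, had 7.35 and 5.11.

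The next of these starts were those of the long noncoding gene LOC124904990 (5.84 and 4.96) and of VPS50, a vesicle tethering subunit that shares its start region with HEPACAM2 (9.54 and 4.6). Those of ADSS2, an adenylosuccinate synthase, had 4.55 and 5.35. RANBP10 had 4.55 and 7.92, and ACTR1A, the actin-related protein of dynactin, had 4.52 and 4.96. The start region shared by RPGRIP1L, a ciliary transition zone protein, and FTO, an RNA demethylase, had 4.72 and 4.48. These 12 sites are the tallest with the element and without H3K9me3 in shARID1A cells, by the smaller of both folds. At 5 of them (RPIA, TMEM115, ADSS2, RANBP10 and ACTR1A) the shARID1A fold was the larger, and at the other 7 the shCtrl fold. Zinc finger genes held 27 of the kept starts, 13 with the element, while 11.9% of all 615 zinc finger gene starts have it.

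Zinc finger genes were the gene list with the highest share of kept peaks. Of 566 such genes, 113 had a kept site in the gene or within 1 kb (20.0%), beside 8.31% of the 19974 protein-coding genes. Of their 853 shCtrl SETDB1 peaks, 134 were kept (15.7%, 13.3 to 18.3), against 4.59% of the peaks at protein-coding genes, and 95 of the 134 had H3K9me3 in shARID1A cells. Median gene length was 23485.5 bp in the list and 24170.5 bp over all protein-coding genes. The kept sites lay late in these genes: 35 of 97 summits (36.1%) fell in the last 20% of the gene, against 100 of 454 (22%) of those not kept, a difference of 14.1 points (4.32 to 24.6). In other protein-coding genes the shares were 14.3% and 16.4%, a difference of -2.10 (-4.06 to 0.0852). Of the 97 sites, 72 (74.2%) had H3K9me3 in shARID1A cells, against 21.6% of the 454. A gap was also present in other protein-coding genes, at 58.4% of kept sites (670 of 1147) against 15.2% of those not kept.

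**Figure D5:**
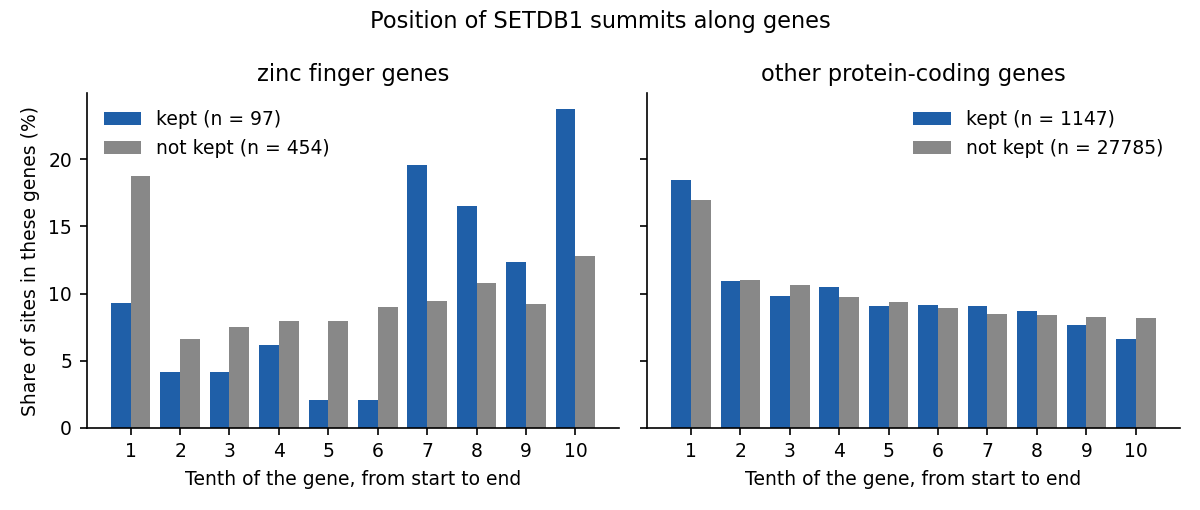
Share of SETDB1 summits (y axis, percent) in each of 10 equal parts of the gene from start to end (x axis), for kept (blue) and not kept sites (grey), in zinc finger genes (left) and other protein-coding genes (right). In zinc finger genes kept summits are most frequent in the last 4 parts, and 36.1% lie in the last 2.

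The zinc finger genes named next were chosen by the folds of their kept sites, not by the place of those sites in the gene. The kept site of ZNF75A (chr16:3317259-3317919) had a fold of 17.3 in shCtrl and of 9.96 in shARID1A cells, and it met H3K9me3 of shARID1A and TRIM28 of unmodified cells. That of ZNF286A (chr17:15716478-15717253) had 13.5 and 9.55 and met 5 other lists, TRIM28 of shARID1A and of unmodified cells among them. ZFP69B had 8.92 and 8.71, with summits 1 bp apart. ZNF594 met 6 other lists, with folds of 8.24 and 9.01. ZNF200 had 19.7 and 7.78, ZNF333 had 13.8 and 7.21, ZNF77 had 7.53 and 7.66, and ZNF557 had 6.79 and 7.0. ZNF274, which encodes a protein known to bring SETDB1 to the 3′ ends of zinc finger genes, itself held a kept site, with folds of 7.36 and 8.56. Except for ZNF225, each zinc finger gene named here had an H3K9me3 peak of shARID1A cells on its kept site. Over all kept sites, in genes or not, 80.3% of those with shCtrl folds of 5.50 to 8.27 had that mark, and 95.1% of those above. Over all 134 kept peaks of zinc finger genes, 95 had it.

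Outside zinc finger genes, the tallest kept site in a gene, by the smaller of both folds, was in WWC3, a scaffold protein related to the Hippo pathway (chrX:10119353-10119915), with a fold of 12.7 in shCtrl and of 12.5 in shARID1A cells. It met H3K9me3 and ARID1A of shCtrl and TRIM28 and H3K9me3 of shARID1A cells. The antisense gene MSRB3-AS1 had 28.4 and 10.3, folds that are not on a common scale. The site upstream of PRCC and overlapping HDGF, a growth factor gene, had 9.76 and 9.01. HTR7, a serotonin receptor gene, had 11.6 and 8.49, FAM193B-DT had 9.18 and 8.43, and SEC14L1 had 10.8 and 8.43, each with TRIM28 and H3K9me3 of shARID1A cells. AP2S1, a clathrin adaptor subunit, had 8.25 and 8.43 and met none of the other 8 input lists. CCDC158 (18.4 and 7.21), KATNBL1 (14.2 and 7.21), the long noncoding genes LINC00963 (17.9 and 6.81), LOC105375416 (15.0 and 7.66) and DENND5B-AS1 (12 and 7.75), and the apoptosis gene BAD at its overlap with GPR137 (9.74 and 7.15) all met shARID1A H3K9me3.

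The site with the highest smaller fold of all lay between genes, at chr5:43335681-43337025, with 18.0 in shCtrl and 13.3 in shARID1A cells, and met TRIM28 and H3K9me3 of both shARID1A and unmodified cells. An intergenic site at chr17:61619332-61620000 met the same 4 lists, with folds of 31.3 and 12.4. A site at chr1:29379186-29379942 met all 3 shCtrl lists and both shARID1A lists, with 24.2 and 12. All 8 lists met a site at chr10:104092686-104095187, where shCtrl SETDB1 had its highest fold of all kept sites (40.8) and shARID1A SETDB1 6.51. They also met a site in DCBLD2, a transmembrane receptor gene (7.82 and 3.04), and one in NSMCE2, a SUMO ligase gene (11.5 and 2.67). These sites were wide, at 2502, 3213 and 1265 bp against a median of 396 bp for kept sites. Their SETDB1 summits lay 31, 928 and 654 bp apart. RRAS2, a RAS-related GTPase gene, held a site with all 3 shCtrl lists and both shARID1A lists (17.6 and 4.87).

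The other gene lists are set beside the 8.31% of all protein-coding genes with a kept site. Of the sites named from these lists, here and in the next paragraph, only those of ATF7IP and RPSA had q of at most 0.05 in shARID1A cells. Genes for heterochromatin writers and readers had them in 4 of 30 (13.3%), led by ATF7IP, the partner protein of SETDB1 (19.9 and 5.43, with TRIM28 and H3K9me3 of shARID1A cells). ATF7IP2 (5.56 and 4.06) and SETDB2, a related methyltransferase (5.54 and 3.96), followed. Ribosomal protein genes had 10 of 84 (11.9%), including the starts of RPSA (4.23 and 4.31) and RPL3 (4.82 and 3.65). Histone genes had 7 of 73 (9.59%), of which H2AC19 and H4C15 share 1 site (5.05 and 2.86). Nuclear tRNA genes had 15 of 429 (3.50%), with a median gene length of 73 bp against 24170.5 bp for protein-coding genes.

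The 12 of 53 clustered protocadherin genes with a kept site share a single one, at the start of PCDHGA8 (4.70 and 2.28), since their annotated bodies overlap. Interferon and RNA sensing genes had 3 of 30 (10.0%), including OAS1 (6.22 and 3.16) and IFIT1 (3.94 and 2.02). Targets of p53 had 4 of 25 (16.0%), including TP53I3 (3.46 and 3.58) and SESN2 (3.23 and 2.92), whose start also carried the promoter element. SWI/SNF subunits had 1 of 27 (3.7%), near SMARCD2 (1.74 and 2.60), and WNT pathway and intestinal genes had 1 of 26 (3.85%). The difference of these counts from the 8.31% of all protein-coding genes was not tested.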

How the data were processed

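Peak positions of 10 precipitated libraries, 20 lists in all, were used as deposited. The submitters' processing notes name the peak caller MACS2 2.2.7.1, the aligner Bowtie2 2.2.5, ChIPseeker, deepTools 3.5.1 and FastQC 0.11.9, with GRCh38 and hg38, and their options are unknown here. Each deposited list gives a fold enrichment, a linear ratio, and p and q as −log10 values for each peak, computed by the authors' peak caller for 1 library against 1 control. The control of a list was read from its name.

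Overlaps of at least 1 bp were counted in Python 3.11.15 with numpy 2.4.6 and pandas 2.3.3. Shares have exact Clopper-Pearson and differences Newcombe 95% intervals (scipy 1.17.1), and a difference was called where its interval left out 0. Comparisons within ranges used 5 bins of fold by 5 of width, weighted by kept sites. Overlap and interval code was tested on simulated peaks. Genes and 34789 gene starts came from RefSeq tables (GRCh38.p14, the same primary chromosomes as hg38), and the starts used here leave out chromosome 8. Named sites were the 25 with the highest smaller fold in genes (q of at most 0.05 in both lists and kept against IgG), the top 3 genes of each of 10 lists, the top 6 by combination of lists and the top 12 with the element, and some of these are not printed. The rule asked for the sequences of 4 of the 25 at gene starts; 2 were found. The members, lists, motifs and tests were chosen with earlier results of these data known. Repeats at the sites were not analysed here.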

Additional observations from a re-analysis of the deposited data

Results flagged for a closer look

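The shares of TRIM28 and H3K9me3 at the same SETDB1 peaks differed between shARID1A and shCtrl cells by other amounts at kept and not kept sites. For TRIM28 the shARID1A share minus the shCtrl share was 25.3 points at kept and 2.14 points at not kept sites, a difference of 23.1 (21.4 to 24.8), with lists called against input. With the TRIM28 lists against IgG it was 10.8 and 11.4 points, and the difference was -0.592 (-2.49 to 1.30). For H3K9me3 the input lists gave 50.5 and -4.95 points, a difference of 55.5 (53.5 to 57.5). The IgG lists gave 52.4 and 18.2 points, of 1 sign, and a difference of 34.3 (32.3 to 36.2). The shARID1A TRIM28 list against input was longer than the shCtrl one (203714 against 70447 peaks) and the H3K9me3 list shorter (56886 against 92063), so the change in share also carries the length of the lists. The kept sites were chosen with a shARID1A list called against the same input, and the part of this in both values was not tested.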

How the results depend on the processing

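The number of kept sites was 27738 with both SETDB1 lists against IgG, 2113 with an overlap of at least 50% of both peaks and 587 with q of at most 0.05 in both. The percent kept was 24.3, 2.66 and 1.56 in these settings, 4.21 when kept against both controls and 5.56 with peaks merged within 1 kb. Of 101 alternative values of a difference between kept and not kept sites, 85 kept the direction and the side of 0, 2 kept only the direction, 1 was 0 and 13 turned. With both SETDB1 lists against IgG the difference turned for shCtrl ARID1A (6.26), shCtrl H3K9me3 (8.56), unmodified ARID1A (7.05) and protein-coding genes (2.2). With all lists against IgG it turned for shCtrl ARID1A (18.1), shCtrl H3K9me3 (13.3), unmodified ARID1A (7.5) and unmodified H3K9me3 (-0.0932). For shCtrl ARID1A it also turned with that list against IgG (1.93), with merged peaks (0.845) and with strong peaks of that list (0.0365), and was -0.215 when kept against both controls. The gene-start difference was -0.569 with 50% overlap, and the shCtrl TRIM28 difference was -0.270 within ranges of fold and width. With strong peaks of the other list, unmodified TRIM28 gave 0.0209 and unmodified H3K9me3 0. The TRIM28 change between cell states, kept minus not kept, was -0.592 with that antibody's lists against IgG, an alternative chosen after seeing the data. The cause was not tested. The differences for shARID1A H3K9me3, shARID1A TRIM28 and the element kept their direction in all alternatives run; those for the element were chosen after seeing the data. No paired analysis was possible because each group has 1 library. Depth is unknown, and no left-out replicate could be tried.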
